A study of Mus musculus with 4 samples.

Results

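The genes described here fold, check and degrade proteins in the endoplasmic reticulum (ER), or report stress in it. There were 32 such genes on the list: chaperones, disulfide isomerases, degradation factors, the stress sensors and the transcription factors they act through, with Sec61b and Rcn2. A gene was measured where a transcript cluster of the array, a group of probes read as 1 transcript, carried that gene's symbol and no other. This gave 30 of the 32 genes, among 29860 genes in all. Pdia4 shared its cluster with Mir704 and Manf with Rbm15b, so neither was given a value.

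RNA came from splenic regulatory T cells, a Foxp3-expressing CD4 lineage that restrains immune responses, of mice aged 7 to 8 weeks; 15000 to 40000 cells were sorted by green fluorescence for each of the 4 arrays. All mice carried Foxp3EGFP-cre, a transgene that makes green fluorescent protein and Cre recombinase under Foxp3 control, on C57BL/6. Mice with this transgene alone are labelled WT (replicates 1 and 3), and mice that also carried BMI1-flox are labelled KO (replicates 1 and 2), so Bmi1, a Polycomb repressive complex 1 subunit, could be lost where Foxp3 was expressed. The labels give no zygosity of the floxed allele. Sample titles and the treatment field describe cells that were not stimulated, whereas the series text describes stimulation through CD3 and CD28 for 24 h, and this conflict was not settled.

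Proteins enter the ER through the Sec61 channel and fold there with the help of BiP (Hspa5), other chaperones and disulfide isomerases, while lectins retain glycoproteins until they are folded. Proteins that fail are moved back to the cytosol and degraded. When unfolded proteins accumulate, the sensors IRE1 (Ern1), PERK (Eif2ak3) and ATF6 start the unfolded protein response: IRE1 splices Xbp1 mRNA, PERK slows translation and favours ATF4, and cleaved ATF6 induces chaperones. T cells use this machinery when they make receptors and cytokines.

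Many chaperone promoters carry the ER stress response element (ERSE), which ATF6 binds together with the CCAAT factor NF-Y. It was searched as CCAAT, then 9 bases, then CCACG, on both strands. Windows from 250 bases before to 50 bases after the start (RefSeq, GRCm38.p6) were at hand for 28 of the 32 genes. The ERSE was in 8 of them, against 0.119% of all 32851 windows. The related ERSE-II, searched as ATTGG, then 1 base, then CCACG, was in Herpud1 and in Dnajb11, against 0.0365% of windows. Both elements end in CCACG and can share these letters. TGACGTGG, an element bound by XBP1 and ATF6, was in none of the 28 genes, against 0.676% of windows. TGATGCAA, an element of ATF4 and C/EBP factors, was in Atf3 and Herpud1, against 0.895%. A match describes letters in the window and does not show that a factor binds there.

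The upstream stretches with an element are printed because the genes that hold an ERSE or ERSE-II are compared as a group further on. Each reads 5′ to 3′ on the gene's strand, and capitals mark the matched letters of an ERSE.
Hspa5, chr2:34772015-34772053, plus strand: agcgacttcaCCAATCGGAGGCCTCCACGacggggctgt
Hsp90b1, chr10:86705523-86705666, minus strand: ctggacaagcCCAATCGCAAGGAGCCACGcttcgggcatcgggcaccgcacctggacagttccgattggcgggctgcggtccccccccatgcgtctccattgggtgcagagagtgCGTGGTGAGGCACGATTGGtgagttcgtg
Calr, chr8:84847065-84847103, minus strand: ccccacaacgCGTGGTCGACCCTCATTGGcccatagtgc
Canx, chr11:50325790-50325828, minus strand: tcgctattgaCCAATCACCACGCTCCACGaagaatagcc
Pdia6, chr12:17266481-17266519, plus strand: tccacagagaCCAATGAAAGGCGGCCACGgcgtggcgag
Dnajc3, chr14:118937817-118937855, plus strand: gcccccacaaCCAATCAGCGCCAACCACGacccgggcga
Creld2, chr15:88819510-88819548, plus strand: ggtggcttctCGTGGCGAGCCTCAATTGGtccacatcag
Syvn1, chr19:6046522-6046560, plus strand: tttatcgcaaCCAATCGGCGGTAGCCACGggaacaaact

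Hsp90b1 holds 2 such matches, and in Calr, Creld2 and the second match of Hsp90b1 the element lies on the opposite strand. Herpud1 holds both other kinds of element, and capitals mark first the letters of the ATF4 and C/EBP element, here on the opposite strand, and then the ERSE-II.
Herpud1, chr8:94386307-94386397, plus strand: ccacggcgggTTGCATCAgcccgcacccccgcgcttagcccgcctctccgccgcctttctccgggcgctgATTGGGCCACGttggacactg

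Bmi1, the targeted gene, went against its label. On the log2 scale used for all levels here, it read 8.98 and 8.98 in WT replicates 1 and 3 and 9.58 and 9.91 in KO replicates 1 and 2, a difference of 0.77 (SE 0.16, limma adjusted p 0.289). The exons that its probes cover are not known here, and probes that lie outside the floxed exons could not check the label. Every direction below therefore rests on the labels WT and KO alone. Array medians lay between 4.65 and 4.72. Of the T cell and regulatory T cell markers, 13 of 16 were measured, none of them below the median gene. Their differences, 10 above 0 and 3 below, ran from -1.34 (Lrrc32, SE 0.25) to 1.15 (Gpr83, SE 0.28). Mean levels of the B cell, myeloid, and erythroid and platelet lists lay between 4.34 and 5.04. Those of the plasma cell list lay between 5.26 and 5.68, and of the CD8 T and NK list between 5.52 and 5.94. In mean level 8 of 12 B cell, 12 of 15 myeloid and 5 of 5 erythroid and platelet genes lay below the median gene (5.04). Ms4a1 and Lyz2 did so in all 4 arrays, whereas the B cell genes Cd79b (7.42 to 7.91) and Cd72 (6.53 to 7.04) did not in any. Foxp3 shared its cluster with other genes and was given no value. No label says whether the arrays came from separate animals, so the p-values measure the spread between these arrays. In such bulk RNA, fewer cells of a type and less RNA per cell cannot be told apart.

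No ER gene passed the test of KO against WT (limma, Benjamini-Hochberg adjusted p under 0.05 over 29860 genes), where 0.00670% of all genes passed. At an unadjusted limma p under 0.05 there were 4 of the 30, where 10.3% of all genes were. Among the 4 is Rcn2, which was listed with its difference already known, so its count is not independent of these data. Ern1, Ppp1r15a and Trib3 were higher in the arrays labelled KO (background 6.45%), and Rcn2 was lower (background 3.81%). Which genes these were changed when 1 array was left out. For Rcn2 the difference then lay between -1.30 and -1.05 and for Ern1 between 0.45 and 0.77. For Ppp1r15a it lay between 0.44 and 0.54 and for Trib3 between 0.28 and 0.41. The median difference was 0.02, against 0.01 over all genes, and 16 genes lay above 0 (51.1% of all genes did) and 14 below. For 9 of the 30 the levels of one label were all above those of the other, as for 38.6% of all genes: 5 with KO higher (21.1% of all genes) and 4 with KO lower (17.5%). Named after their values were seen, these are Ern1, Ppp1r15a, Trib3, Edem2 and Dnajb9 above and Rcn2, Pdia6, Syvn1 and Edem1 below. A further quantile normalization made these counts 6 and 6, and centring each array on its median made them 5 and 2. Shares of all genes under these settings are not given here, so the counts cannot be set against a background. With 2 arrays per label, the lowest two-sided p of an exact permutation test is 0.333.

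**Figure D1:**
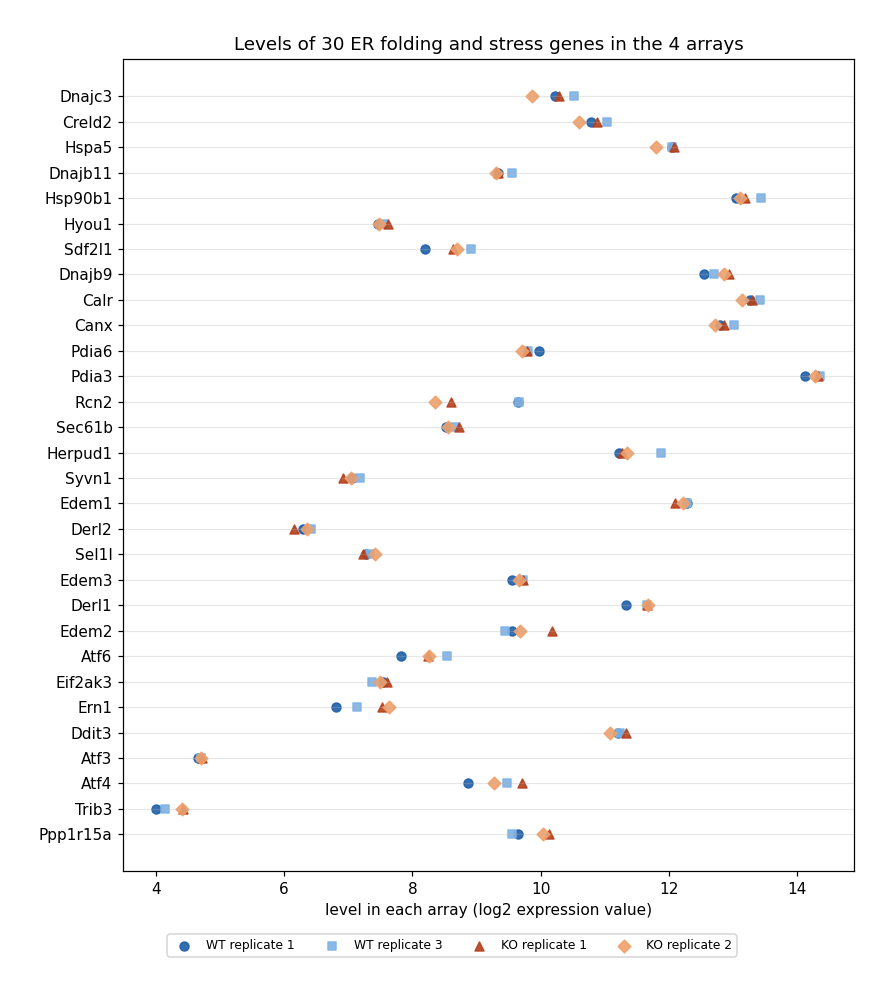
Level of each of the 30 measured genes (rows, grouped by role) in the 4 arrays, as log2 expression values on the horizontal axis, with 1 symbol per array. For Rcn2 both arrays labelled KO (8.60 and 8.35) lie apart from both arrays labelled WT (9.64 and 9.66), whereas for Hspa5, Calr and Canx the symbols of the groups overlap.

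The chaperones of the ER lumen differed little between the labels. Hspa5, or BiP, the Hsp70 chaperone that also holds the sensors inactive, read 12.05 and 12.05 in WT replicates 1 and 3 and 12.08 and 11.79 in KO replicates 1 and 2. KO replicate 2 was the low array and the groups overlapped. The difference was -0.12 (SE 0.14, 0.923-fold with a 95% interval of 0.724 to 1.18, limma adjusted p 0.851). Hsp90b1, the Hsp90 chaperone GRP94, read 13.04 and 13.44 in the arrays labelled WT and 13.18 and 13.11 in those labelled KO. Here the arrays labelled KO lay between the WT arrays, and the difference was -0.10 (SE 0.16, 0.936-fold with an interval of 0.712 to 1.23, limma adjusted p 0.899).

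Among the co-chaperones, Dnajb9, a J protein that recruits BiP to IRE1, was the single one whose arrays did not overlap. It read 12.55 and 12.70 in the arrays labelled WT and 12.94 and 12.86 in those labelled KO, a difference of 0.28 (SE 0.11, 1.21-fold with an interval of 0.998 to 1.47, limma adjusted p 0.494). Dnajc3, a J protein that assists BiP, differed by -0.30 (SE 0.20) and Dnajb11, the J protein ERdj3, by -0.12 (SE 0.14). Sdf2l1, which acts with ERdj3, differed by 0.11 (SE 0.26), and its WT arrays, at 8.19 and 8.92, stood further apart than any other pair of one label among the 30 genes. Hyou1, which exchanges nucleotide on BiP, differed by 0.04 (SE 0.13), and Creld2, an ER factor with disulfide isomerase activity, by -0.17 (SE 0.16). Limma adjusted p for these 8 luminal chaperones and co-chaperones, Hspa5 and Hsp90b1 included, lay between 0.494 and 0.959.

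The lectin chaperones calreticulin (Calr) and calnexin (Canx), which bind glycoproteins during folding, differed by -0.13 (SE 0.11) and -0.12 (SE 0.12). Both had WT replicate 3 as the high array (13.42 and 13.01) and KO replicate 2 as the low one (13.14 and 12.71). Pdia3, the isomerase that works with them, differed by 0.06 (SE 0.11). Pdia6, another disulfide isomerase, read 9.98 and 9.80 in the arrays labelled WT against 9.78 and 9.71 in those labelled KO, so that its groups were parted by 0.02 between the nearest arrays. Limma adjusted p for these 4 genes lay between 0.789 and 0.911. Across the 12 chaperones and isomerases, 8 differences lay below 0 and 4 above, with a median of -0.12. Over all 29860 genes, 14302 lay below 0. Among the 12, 0 had an unadjusted limma p under 0.05, where 10.3% of all genes did.

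**Figure D2:**
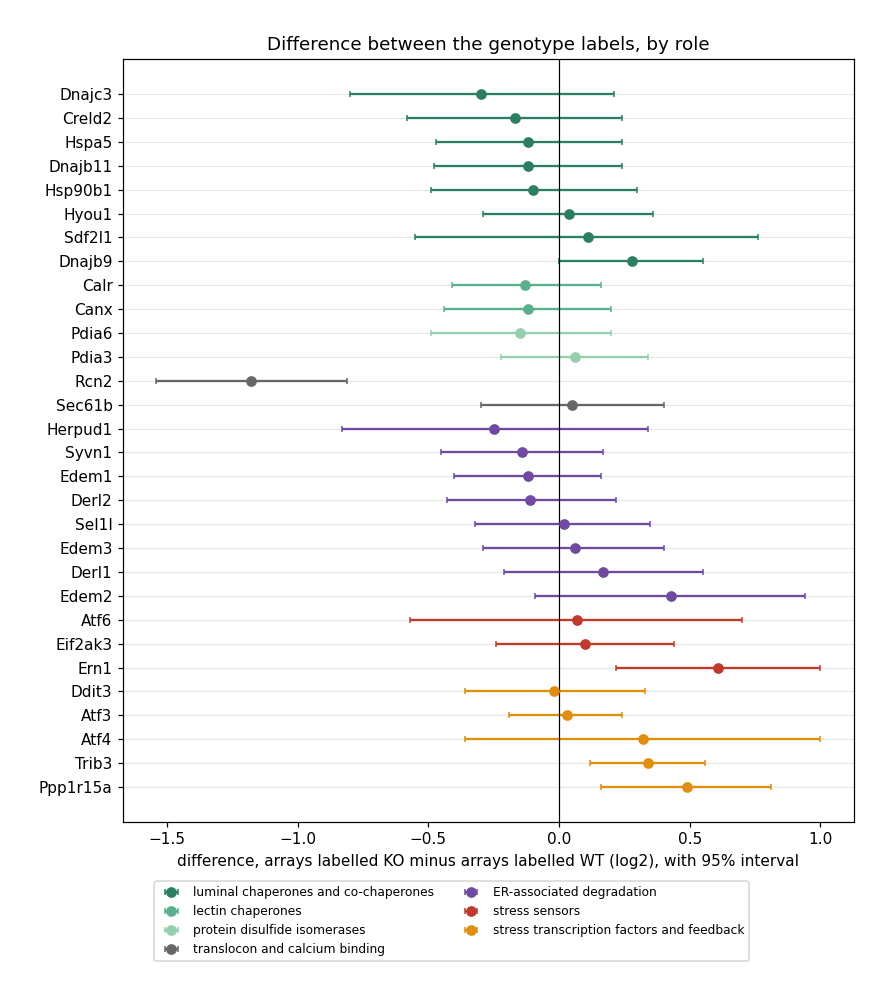
Difference between arrays labelled KO and arrays labelled WT (log2, horizontal axis) for each measured gene, with its 95% interval from the limma fit and the colour giving its role. The intervals of Rcn2 (-1.54 to -0.81), Ern1 (0.22 to 1.00), Ppp1r15a (0.16 to 0.81) and Trib3 (0.12 to 0.56) leave out 0 before adjustment.

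Rcn2 stood apart, with lower levels in the arrays labelled KO. It encodes reticulocalbin 2, a calcium-binding protein of the ER lumen with EF hands. Its level was 9.64 and 9.66 in WT replicates 1 and 3 and 8.60 and 8.35 in KO replicates 1 and 2. Arrays of one label lay within 0.25 of each other, and both KO arrays were lower. The difference was -1.18 (SE 0.14), 0.443 times the WT level with a 95% interval of 0.343 to 0.572, with an unadjusted limma p of 3.86e-04 and a limma adjusted p of 0.195. Over 10 alternatives the limma adjusted p lay between 0.0863 and 0.796, and the difference between -1.30 and -1.05 with 1 array left out. The gene was put on the list when this difference was already known, so the size is given as a description.

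Related proteins did not show a difference of that size. Of the CREC family, to which Rcn2 belongs, Rcn3 differed by 0.12 (SE 0.10), calumenin (Calu) by -0.17 (SE 0.13) and Sdf4 by 0.10 (SE 0.12), and Rcn1 was not analysed here. The lowest bound among these intervals was that of Calu, at -0.49. Sec61b, a subunit of the Sec61 channel, differed by 0.05 (SE 0.14, limma adjusted p 0.949).

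The genes next to Rcn2 on chromosome 9 were looked at after its value was seen. Among the 4 measured protein-coding genes on either side, in the order of the RefSeq annotation of GRCm38.p6, Tspan3, a tetraspanin gene, read 8.44 and 8.39 in the arrays labelled WT and 8.91 and 9.29 in those labelled KO. Its difference was 0.69 (SE 0.17), opposite to that of Rcn2 (limma adjusted p 0.345). Scaper differed by 0.38 (SE 0.13, limma adjusted p 0.425), while Pstpip1, the next gene after Rcn2, differed by 0.02 (SE 0.16). Peak1 had -0.29 (SE 0.12), and the remaining 4 lay between -0.09 and 0.10.

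**Figure D3:**
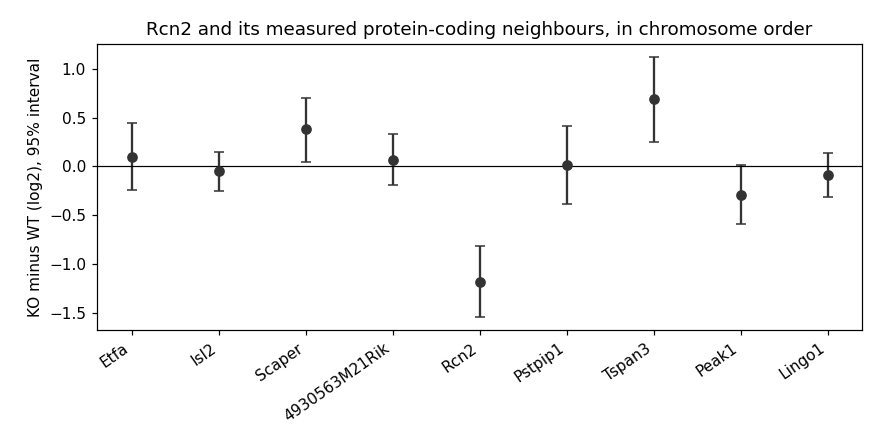
Difference between arrays labelled KO and arrays labelled WT (log2, vertical axis, with 95% interval) for Rcn2 and the 4 measured protein-coding genes on each side, spaced evenly in chromosome order. Rcn2 is at -1.18, Tspan3 at 0.69, and the others lie between -0.29 and 0.38.

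Genes of ER-associated degradation, which returns failed proteins to the cytosol, were split evenly, with 4 differences above 0 and 4 below and a median of -0.05. Edem2, a mannosidase that marks glycoproteins for removal, read 9.55 and 9.45 in the arrays labelled WT and 10.18 and 9.67 in those labelled KO. KO replicate 1 stood above the other 3 arrays, and the difference was 0.43 (SE 0.20, limma adjusted p 0.560), or 0.17 without that array. Edem1 and Edem3, its relatives, differed by -0.12 (SE 0.11) and 0.06 (SE 0.14). Herpud1, a scaffold of the ubiquitin ligase complex, read 11.22 and 11.87 in the arrays labelled WT and 11.26 and 11.34 in those labelled KO. WT replicate 3 was the high array, and without it the difference went from -0.25 (SE 0.23) to 0.08.

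The ubiquitin ligase Syvn1, or HRD1, differed by -0.14 (SE 0.12) and its partner Sel1l by 0.02 (SE 0.13). Derl1 and Derl2, membrane proteins of the exit channel, differed by 0.17 (SE 0.15) and -0.11 (SE 0.13). Limma adjusted p for the 8 degradation genes was 0.560 or above.

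Of the 3 sensors, Ern1 was higher in the arrays labelled KO. Ern1 encodes IRE1, the kinase and RNase that splices Xbp1 mRNA. It read 6.81 and 7.13 in WT replicates 1 and 3 and 7.53 and 7.63 in KO replicates 1 and 2. The groups did not overlap, and the WT arrays differed from each other by 0.32. The difference was 0.61 (SE 0.15, 1.53-fold with an interval of 1.16 to 2.00, unadjusted limma p 0.0100, limma adjusted p 0.350). With 1 array left out it lay between 0.45 and 0.77, with an unadjusted limma p of 0.0108 to 0.0831.

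Eif2ak3, the gene of the kinase PERK, read 7.54 and 7.37 in the arrays labelled WT and 7.61 and 7.50 in those labelled KO, a difference of 0.10 (SE 0.13, limma adjusted p 0.869). Atf6, the membrane-bound transcription factor, read 7.83 and 8.54 in the arrays labelled WT and 8.24 and 8.26 in those labelled KO, with a difference of 0.07 (SE 0.25, limma adjusted p 0.960). The WT arrays of Atf6 lay on either side of the KO arrays, and its interval, -0.57 to 0.70, is wide. Whether Ern1 differed more than the other sensors was not tested.

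Xbp1, the target of IRE1, read 10.98 and 11.25 in the arrays labelled WT and 11.50 and 11.14 in those labelled KO, a difference of 0.21 (SE 0.18, limma adjusted p 0.781). A cluster value does not separate spliced from unspliced Xbp1 mRNA. Plasma cells depend on IRE1 and XBP1, so their markers are given beside Ern1. Of 12 such markers 10 were measured and 0 passed the adjusted test (limma, lowest adjusted p 0.0972). Their differences were above 0 for 8 (51.1% of all genes) and below for 2, 3 had an unadjusted limma p under 0.05 with KO higher (6.45% of all genes), and their mean level was 5.26 and 5.31 in the arrays labelled WT and 5.67 and 5.68 in those labelled KO. Ighg2b, an antibody heavy chain gene, differed by 1.81 (SE 0.12), Jchain by 1.03 (SE 0.13) and Mzb1 by 0.40 (SE 0.10), while the surface marker Sdc1 differed by -0.03 (SE 0.08). In mean level 6 of the 10 lay below the median gene, Sdc1 and Mzb1 among them, and the table carries no detection call. Their part in the Ern1 value was not tested.

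The transcription factors and feedback genes downstream of PERK were measured by 5 genes, 4 with a difference above 0 (51.1% of all genes), and their median was 0.32. Ppp1r15a, or GADD34, which brings a phosphatase to eIF2 alpha and so restores translation, read 9.64 and 9.55 in the arrays labelled WT and 10.13 and 10.03 in those labelled KO. The groups did not overlap, and arrays of one label lay within 0.10 of each other. Its difference was 0.49 (SE 0.13, 1.40-fold with an interval of 1.12 to 1.75, unadjusted limma p 0.0119, limma adjusted p 0.363). Trib3, a pseudokinase induced by ATF4 and CHOP, read 4.01 and 4.14 against 4.42 and 4.41, a difference of 0.34 (SE 0.09, unadjusted limma p 0.0103, limma adjusted p 0.350). All 4 arrays put Trib3 below the median gene. With 1 array left out, unadjusted limma p ran from 0.0299 to 0.0658 for Ppp1r15a and from 0.0153 to 0.0558 for Trib3, and the values above 0.05 came from fits without an array labelled KO.

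Atf4, the central factor of this branch, read 8.86 and 9.48 in the arrays labelled WT and 9.71 and 9.27 in those labelled KO. The groups overlapped, and its difference of 0.32 (SE 0.27, limma adjusted p 0.771) ran from 0.01 to 0.63 with 1 array left out. ATF4 is controlled largely in translation, which RNA levels do not show. Ddit3, which encodes the stress factor CHOP, had a pair of clusters. The one used, which its identifier marks as unmapped, read 11.21 and 11.23 against 11.33 and 11.08 (difference -0.02, SE 0.14, limma adjusted p 0.976). The other, whose identifier is not so marked, read 11.07 and 10.85 against 11.31 and 11.05 (difference 0.22). As the mean of both the difference was 0.10, so the sign of Ddit3 in the counts of differences above and below 0 rests on this choice. Atf3, another stress factor, lay below the median gene in all arrays and differed by 0.03 (SE 0.08, limma adjusted p 0.955).

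Ppp1r15a is also induced early when cells are handled or activated, so early response and heat shock genes are given beside it. Of 20 such genes 18 were measured, 12 of them above 0 (51.1% of all genes) and 6 below, with differences from -0.36 to 1.92. Mean levels were 9.75 and 9.66 in the arrays labelled WT and 9.99 and 9.85 in those labelled KO. Arrays did not overlap for 8 with KO higher (21.1% of all genes) and for 2 with KO lower (17.5%). At an unadjusted limma p under 0.05 there were 5 of 18, where 10.3% of all genes were, and all 5 had KO higher (6.45% of all genes): the heat shock genes Hspa1a (1.92, SE 0.25), Dnajb1 (0.59, SE 0.12), Hspa8 (0.13, SE 0.03) and Hsp90aa1 (0.30, SE 0.10), and the phosphatase gene Dusp1 (0.44, SE 0.09). Their limma adjusted p lay between 0.197 and 0.429. Their part in the Ppp1r15a value was not tested.

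Other genes of the pathway came from 6 lists with 186 genes, of which 168 were measured. None passed the adjusted test (limma). At an unadjusted limma p under 0.05 there were 12 of 168, a smaller share than the 10.3% of all genes, with 6 in each direction, and the median difference was 0.02. The list of the integrated stress response, the common route by which eIF2 kinases act on ATF4, held 6 of these 12, among its 34 measured genes. Of the 34, 4 had KO higher (6.45% of all genes) and 2 had KO lower (3.81% of all genes). Its 4 kinases had unlike values. Eif2ak2, the RNA-activated kinase PKR, which interferon induces, read 8.43 and 8.36 in the arrays labelled WT and 6.68 and 7.19 in those labelled KO, a difference of -1.46 (SE 0.20, limma adjusted p 0.210). Eif2ak4, the amino acid sensor GCN2, differed by -0.43 (SE 0.12, limma adjusted p 0.372). Eif2ak1, the heme-regulated kinase HRI, differed by 0.07 (SE 0.12), and the fourth is Eif2ak3, above.

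The 4 higher genes of that list were Asns, asparagine synthetase (0.35, SE 0.12), Aldh18a1, a proline synthesis enzyme (0.37, SE 0.14), Cebpg, a partner of ATF4 (0.34, SE 0.13), and Bcl2l11, the death factor BIM (0.47, SE 0.14). Their limma adjusted p lay between 0.389 and 0.479. Asns read 5.11 to 5.64 over the arrays, near the median gene (5.04). Of all 34 measured genes on the list 21 were above 0 (51.1% of all genes were) and 13 below, with a median of 0.05.

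Among other folding genes 20 of 34 differences lay above 0, where 51.1% of all genes did. An unadjusted limma p under 0.05 with KO higher was found for 2 of 34, where 6.45% of all genes had one. Of these, Sdf2, the relative of Sdf2l1, read 10.90 and 11.03 against 11.59 and 11.47 (difference 0.57, SE 0.12), and Prdx4, the peroxiredoxin of the ER, read 11.75 and 11.77 against 12.19 and 12.22 (0.45, SE 0.11). Both had arrays of one label close together and no overlap, with limma adjusted p of 0.309 and 0.333. In the translocon and glycan list 19 of 33 differences lay below 0, and 2 of 33 had an unadjusted limma p under 0.05 with KO lower, where 3.81% of all genes did: Uggt2, a glycoprotein glucosyltransferase (-0.43, SE 0.09), and Dad1, an oligosaccharyltransferase subunit (-0.33, SE 0.11). Creb3l2, an ER-bound transcription factor of the ATF6 type, read 8.10 and 8.45 in the arrays labelled WT and 7.41 and 7.66 in those labelled KO (-0.74, SE 0.18, limma adjusted p 0.340). The calcium channel gene Orai3 was lower by the unadjusted test (-0.46, SE 0.12). In the list of other degradation genes 0 of 31 had an unadjusted limma p under 0.05, and the lowest, 0.0634, was that of the ubiquitin ligase gene Rnf139 (-0.35, SE 0.15).

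The genes with an ERSE or ERSE-II, whose sequences are printed above except that of Dnajb11, were then set against those without. All 10 measured genes with such an element had a difference below 0, between -0.30 and -0.10, with a median of -0.13. Of all 17867 measured genes with a promoter window, 9069 lay below 0 and 8600 above. Of the 17 measured genes with a promoter window and neither element, 13 lay above 0 and 4 below, with a median of 0.06. The 4 genes with an unadjusted limma p under 0.05 were all among these 17. Such a p was found for 1223 of the 17867 measured genes with a promoter window, and for 10.3% of all genes. Hyou1 (0.04), Derl1 (0.17) and Atf6 (0.07) were measured but had no window, so they are in neither group. None of the 10 had an unadjusted limma p under 0.05 (lowest 0.194), and each interval held 0. WT replicate 3 was the highest array for 8 of the 10. Without it, 8 of 10 lay below 0 with a median of -0.05, and without KO replicate 2 it was 9 of 10. The 17 without an element had 9 below 0 and 7 above without WT replicate 1. Outside the list, 29 measured genes with an ERSE or ERSE-II had 14 differences below 0 and 15 above, with a median of 0.01. Their mean levels were 6.27 to 6.34 over the arrays, and 13 of the 29 lay below the median gene. Mean levels of the 10 were 10.86 to 11.19, with 0 below the median gene. Among the brighter genes alone, 16 of the 29 had 6 differences below 0 and 10 above, with a median of 0.06. The split by element was looked at after the values were seen and was not tested.

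**Figure D4:**
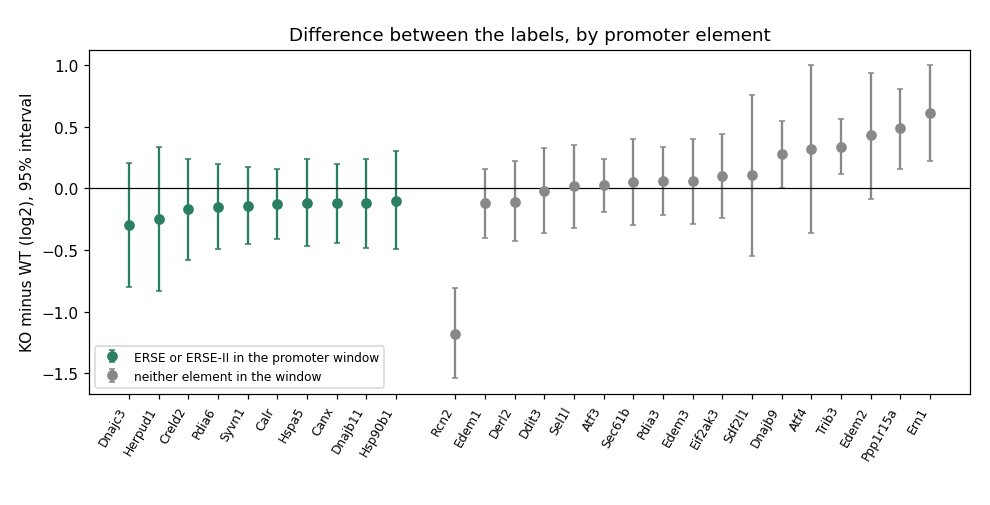
Difference between arrays labelled KO and arrays labelled WT (log2, vertical axis, with 95% interval) for the 27 measured genes with a promoter window, sorted within those that hold an ERSE or ERSE-II (green) and those that hold neither (grey). All 10 green points lie between -0.30 and -0.10, and the grey points run from -1.18 (Rcn2) to 0.61 (Ern1).

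Arrays of one label also differed from each other. WT replicate 3 was above WT replicate 1 for 24 of the 30 genes, with a median of 0.15. This held for 46.5% of all genes (median -0.01) and for 55% of the 14938 genes at or above the median gene (median 0.03). Across the 6 other pathway lists it held for 64.3% of 168 genes (median 0.09). By list the share ran from 36.8% for calcium handling to 80.6% for other degradation genes. Sdf2l1 was 0.73 higher in WT replicate 3, Atf6 0.71, Herpud1 0.65 and Atf4 0.62. In the other group, KO replicate 1 was above KO replicate 2 for 21 of the 30 genes, with a median of 0.07. The shares were 45.6% of all genes (median -0.01), 53.3% of the same brighter genes (median 0.02) and 64.9% of the 168 other pathway genes (median 0.07). The chaperones and isomerases showed this in 11 of 12, whereas degradation genes did in 2 of 8. The mean level of the 30 genes was 9.57 and 9.76 in WT replicates 1 and 3 and 9.71 and 9.62 in KO replicates 1 and 2, so both arrays labelled KO lay between the WT arrays. Markers of CD8 T and NK cells, 8 of 9 measured and 4 of these below the median gene, were higher in WT replicate 3 than in WT replicate 1 for 7 of 8, with mean levels of 5.81 and 5.52, against 5.78 and 5.94 in the arrays labelled KO. Cd8b1 among them read 9.74 and 10.78 in the WT arrays and 10.71 and 11.26 in the KO arrays. Their part in the spread was not tested. Without WT replicate 1 the median difference of the genes was -0.06, and without WT replicate 3 it was 0.07.

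**Figure D5:**
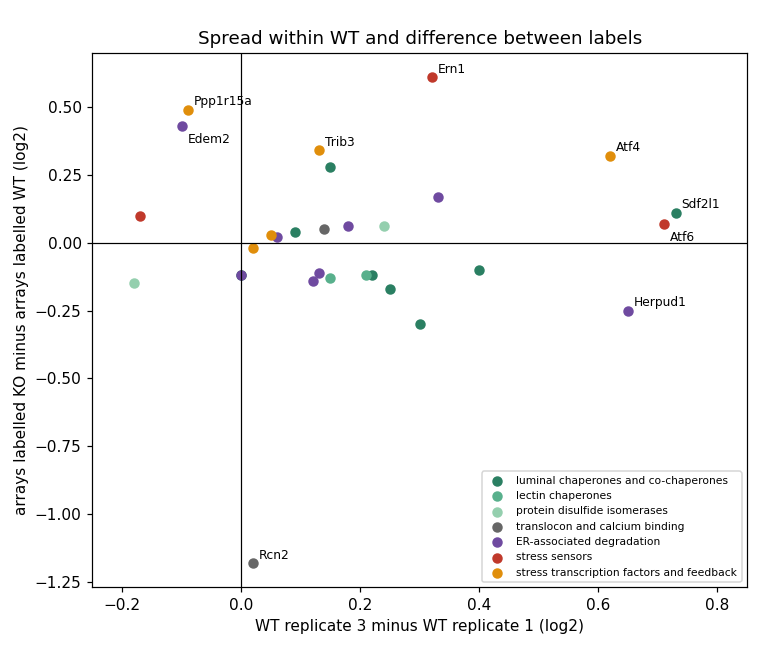
WT replicate 3 minus WT replicate 1 (log2, horizontal axis) against the difference between arrays labelled KO and arrays labelled WT (log2, vertical axis), with 1 point per gene coloured by role. Sdf2l1, Atf6, Herpud1 and Atf4 lie 0.62 to 0.73 to the right, while Rcn2 (0.02, -1.18) and Ppp1r15a (-0.09, 0.49) have close WT arrays and a larger difference between the labels.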

How the data were processed

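The values deposited by the authors are log2 levels of 65528 transcript clusters on 4 arrays, made with RMA and Transcriptome Analysis Console per the submitters' processing notes. No source used here gives the background handling, build or annotation version, and the labels' protocols name real-time PCR reagents rather than array labelling. Base 2 is RMA's usual scale and was assumed; values ran from 1.82 to 19.38. Groups and replicate numbers come from the sample titles.

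Clusters were named through the platform annotation: 30390 had 1 gene symbol, 2127 several and 33011 were not listed. Symbols were updated through RefSeq (GRCm38.p6) gene identifiers. For the 420 genes with several clusters the one with the highest mean was used. KO minus WT was fitted with limma 3.58.1 in R 4.3.3 (lmFit, eBayes with an intensity trend, two-sided, Benjamini-Hochberg over 29860 genes, threshold 0.05), without a filter on dim genes. Intervals are 95%, and fold values are powers of 2. Precision is limited by having 2 arrays per label. The fit was tested on simulated data. There, the adjusted test (limma) called 37.3% of genes given a log2 change of 1 and 79.1% of those given 2. Only a small share of genes was changed, and the noise was normal and independent, with each gene's own spread within labels. These percentages depend on such settings and may not hold for the real comparison. Of the unchanged genes, 5.78% had an unadjusted limma p under 0.05. A gene that did not pass can therefore still differ.

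Every listed gene is accounted for. Levels in each array are given for genes with an unadjusted p under 0.05 or a difference of at least 0.5, the 3 sensors, Atf4, Ddit3, Hspa5 and Hsp90b1, and for others where the text says what their arrays show. From each other pathway list up to 3 genes of lowest p are named, with further genes added after their values were seen. The genes and lists were chosen with earlier results of these data known. Rcn2 had already been named in an earlier analysis of these data. Alternatives were scaling, dim genes, several clusters, eBayes settings and each array left out; the counts by promoter element under them were chosen after seeing the data. Protein sequences were not used here.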

Additional observations from a re-analysis of the deposited data

How the results depend on the processing

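No ER gene passed an adjusted p under 0.05 (limma) under any of the 10 alternatives. Over all genes 2 passed as reported, against 1 after median-centring, 0 after a further quantile normalization, 0 without an intensity trend, 0 with robust settings and 14 among the brighter genes alone, where fewer genes were tested. With 1 array left out, 0 passed in each case. Leaving out 1 array moved the count of ER genes with an unadjusted limma p under 0.05 between 1 and 7, the count not overlapping between groups between 18 and 21, with fewer arrays to overlap, and the median difference between -0.06 and 0.07.

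Shares of all genes are not given for the fits with 1 array left out. The counts of ER genes in those fits, by unadjusted limma p or by overlap, therefore cannot be set against a background. Rcn2, Ern1, Ppp1r15a and Trib3 kept their sign under every alternative in which they were measured. Atf3 was at 0.00 without WT replicate 1, and 11 of the 30 genes changed sign at least once. These 11 are Hspa5 (-0.26 to 0.03 with 1 array left out), Hsp90b1 (-0.30 to 0.11), Pdia3 (-0.06 to 0.18), Sdf2l1 (-0.26 to 0.47), Herpud1 (-0.57 to 0.08), Ddit3 (-0.14 to 0.11), Atf6 (-0.29 to 0.42), Edem3 (-0.04 to 0.15), Hyou1 (-0.04 to 0.11), Sel1l (-0.08 to 0.11) and Sec61b (-0.03 to 0.13). Pdia3 was also -0.02 after a further quantile normalization, and Ddit3 was 0.01 after median-centring and 0.10 as the mean of its clusters. The cause was not tested. Trib3 and Atf3 have no value among the brighter genes. No paired analysis was possible because the groups share a single replicate number. The table carries no background measure, so signal over background is unknown.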
